A study of Mus musculus with 48 samples.

Results

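The mouse genes Elovl1 to Elovl7 encode the family of fatty acid elongases. They were taken by gene symbol, and all 7 were found in both count tables, out of 55450 genes listed there. Their levels are described in white preadipocytes from inguinal white adipose tissue (iWAT) and in mouse embryonic fibroblasts (MEFs), both cultured in a medium that drives them towards beige or brown fat-like cells. All cells were from C57BL/6 mice and carried either the wild type (WT) genes or a loss of both Hmgn1 and Hmgn2, the genes of nucleosome-binding proteins, labelled Hmgn1-/- and Hmgn2-/- (DKO). Both cell types were isolated from WT or DKO mice or embryos. Preadipocytes grew on collagen-coated plates and were collected at days 0, 3, 6 and 9. Early-passage MEFs were collected at days 0, 4, 8 and 12. Cells of both genotypes received insulin, dexamethasone, IBMX, T3 and Rosiglitazone, for 4 days in preadipocytes and 8 days in MEFs, followed by a maintenance medium with insulin and T3. The maintenance medium, stated to last 4 days, thus applied to preadipocytes at day 6 and to MEFs at day 12. The medium of preadipocytes at day 9, after the end of this schedule, is not given. RNA was sequenced from 3 libraries per genotype, cell type and day, 48 libraries in 16 groups. The study calls the libraries of a group biological replicates but does not say whether they came from separate animals. The p-values measure the spread between these libraries.

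Elongases sit in the membrane of the endoplasmic reticulum and catalyse the first and rate-limiting step of the cycle that adds a pair of carbons, taken from malonyl-CoA, to a fatty acyl-CoA. Elovl1, Elovl3, Elovl6 and Elovl7 act mainly on saturated and monounsaturated acyl chains, Elovl2 and Elovl5 on polyunsaturated chains, and Elovl4 makes the very longest chains of skin and retina. Elovl3 was first described as a gene strongly induced in brown fat of cold-exposed mice and is widely used as a marker of brown and beige adipocytes, while Elovl6 lengthens palmitate, the product of fatty acid synthase.

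The members share the histidine box, a short run of codons in a conserved stretch of the enzyme, which is shown because it lets all 7 genes be set beside each other at the same place. It was found by its pattern of codons, with CAT or CAC as codons 1, 4 and 5 of the box, in the GENCODE M21 coding sequences on mm10. Each coding sequence held 1 such box, drawn here in capitals with 15 coding bases on either side, written 5′ to 3′ along the gene.
Elovl1 (chr4:118431439-118431483, plus strand, exon 6): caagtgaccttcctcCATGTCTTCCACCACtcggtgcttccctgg
Elovl7 (chr13:108274316-108274360, plus strand, exon 6): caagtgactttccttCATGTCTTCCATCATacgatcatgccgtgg
Elovl4 (chr9:83785075-83785119, minus strand, exon 4): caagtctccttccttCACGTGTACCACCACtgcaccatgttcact
Elovl2 (chr13:41189986-41190030, minus strand, exon 5): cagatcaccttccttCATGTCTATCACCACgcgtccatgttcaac
Elovl5 (chr9:77976835-77976879, plus strand, exon 5): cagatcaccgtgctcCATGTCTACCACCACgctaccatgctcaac
Elovl3 (chr19:46134407-46134451, plus strand, exon 4): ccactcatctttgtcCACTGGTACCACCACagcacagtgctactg
Elovl6 (chr3:129633092-129633136, plus strand, exon 4): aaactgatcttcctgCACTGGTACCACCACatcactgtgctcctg
Elovl3 and Elovl6 shared 36 of these 45 bases, and their box has TGG as codon 2 where the other members have GTC or GTG. Elovl3 shared 28 bases with Elovl4, 25 with Elovl5, 22 with Elovl1, 22 with Elovl2 and 21 with Elovl7. The coding sequences, without the stop codon, ran from 801 bases in Elovl6 to 936 bases in Elovl4, with 813 bases in Elovl3. Despite this likeness, no run of 50 bases of an Elovl transcript was shared with another gene, except in Elovl6, where 259 of 6502 such runs (3.98%) were.

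On mm10, Elovl1 spans chr4:118428093-118432953 on the plus strand, Elovl2 chr13:41182381-41220405 on the minus strand and Elovl3 chr19:46131897-46135694 on the plus strand. Elovl4 spans chr9:83778692-83806277 on the minus strand, Elovl5 chr9:77917364-77984519, Elovl6 chr3:129532355-129638495 and Elovl7 chr13:108214404-108285683, all 3 on the plus strand. Elovl1 overlaps Cdc20, and Elovl3 overlaps Pitx3, each on the opposite strand. Elovl6 overlaps the antisense gene Gm35986 and, on its own strand, Gm43072, and 2 pseudogenes lie opposite Elovl7. The study made strand-specific reads, but the strand setting of the counting is not given in the sources used here, so that reads of Elovl genes and of these opposite-strand neighbours may not be fully told apart.

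RefSeq promoter entries (GRCm38.p6) were given for 6 of the 7 members, not for Elovl3. The 250 bases before the start are shown for Elovl4 and Elovl7, the members whose levels followed that of Elovl3 most closely over the libraries, with matches to the GC box, GGGCGG, on either strand in capitals.
Elovl4 (chr9:83806306-83806555, minus strand): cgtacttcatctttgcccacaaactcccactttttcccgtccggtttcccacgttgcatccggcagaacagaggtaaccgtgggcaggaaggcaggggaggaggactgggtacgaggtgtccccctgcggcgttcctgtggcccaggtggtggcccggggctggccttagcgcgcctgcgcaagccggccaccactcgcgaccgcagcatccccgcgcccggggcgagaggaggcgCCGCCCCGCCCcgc
Elovl7 (chr13:108214154-108214403, plus strand): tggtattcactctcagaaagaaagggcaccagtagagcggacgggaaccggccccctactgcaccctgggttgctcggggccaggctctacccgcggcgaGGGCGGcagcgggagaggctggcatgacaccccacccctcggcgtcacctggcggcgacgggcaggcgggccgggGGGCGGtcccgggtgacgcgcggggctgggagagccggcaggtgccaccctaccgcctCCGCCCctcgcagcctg
Elovl4 held 2 GC boxes, which overlap by 1 base, and Elovl7 held 3, where 32.7% of 32851 promoters of the same length held at least 1. Their GC contents were 69.6% and 73.6%, with 25 CpG sites each. Neither window held TATAAA (12.4% of all promoters), CCAAT (33.8%), CACGTG (6.02%) or AGGTCA (14%), the nuclear receptor half-site. No Elovl entry held the DR1 direct repeat bound by PPAR factors (0.0335% of all promoters), TCACNCCAC (1.05%), a form of the sterol regulatory element, or the DR4 direct repeat bound by LXR factors (0.0152%), each repeat being copies of the half-site set apart by a fixed spacer. The half-site alone was found in Elovl6 and in the second of the Elovl1 entries, and CACGTG in Elovl5. GC boxes were not particular to Elovl4 and Elovl7, as the Elovl1 entries and an Elovl2 entry also held them.

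Levels are given as CPM, read counts relative to library size, scaled with edgeR's TMM factors over the 24 libraries of a cell type. Genotypes were compared in the 6 libraries of a day with edgeR's quasi-likelihood test over all genes that passed a filter on low counts, and calls required both an adjusted p (Benjamini-Hochberg) under 0.05 and a change of at least 1.5-fold. Library totals ranged from 19809397 to 36006696 (preadipocytes) and from 18962483 to 33083213 (MEFs). Hmgn2 was at or under 0.33 CPM in every DKO library, against 32 to 198 CPM in the WT libraries, whereas Hmgn1 kept 70 to 114 CPM in DKO libraries, where counts per gene do not show the deleted exons. Adipocyte markers (Adipoq, Fabp4, Plin1, Cidec, Lipe, Pnpla2, Retn and Lep) were near their lowest at day 0, with a sum of 29.1 to 47.9 CPM in preadipocytes, and rose with time in both cell types, although Lep stayed near 0. Before any Elovl value is read, 2 libraries of MEFs at day 8 need naming. WT replicate 2 (733 CPM of summed adipocyte markers) and DKO replicate 3 (1109 CPM) stood apart from the other day 8 libraries (4372 to 9162 CPM). At day 4, WT replicate 1 (2330 CPM) stood above the other WT libraries (344 CPM in each). Hmgn2 was 144 CPM in that WT replicate 2 and 0.111 CPM in that DKO replicate 3, as their genotype labels say. Whether these libraries were exchanged with others of their own genotype was not tested, which bears on every day 8 value of MEFs. In bulk RNA, fewer cells of a type and less RNA per cell cannot be told apart.

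Elovl3 went from at or near 0 to the highest CPM of the family, and edgeR called it higher in DKO cells in 3 of the genotype comparisons, against 1 for Elovl4 and none for the other members. In preadipocytes at day 0 it had at most 2 counts in any library of either genotype. At day 3 the WT libraries had 1.41, 6.20 and 5.96 CPM and the DKO libraries 13.1, 40.7 and 22.8 CPM. At day 6 the WT libraries had 128, 211 and 155 CPM and the DKO libraries 386, 558 and 388 CPM. At day 9 the WT libraries had 242, 272 and 278 CPM and the DKO libraries 535, 513 and 578 CPM. From day 3 on, every DKO library was above every WT library of its day, and both genotypes rose together.

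**Figure D1:**
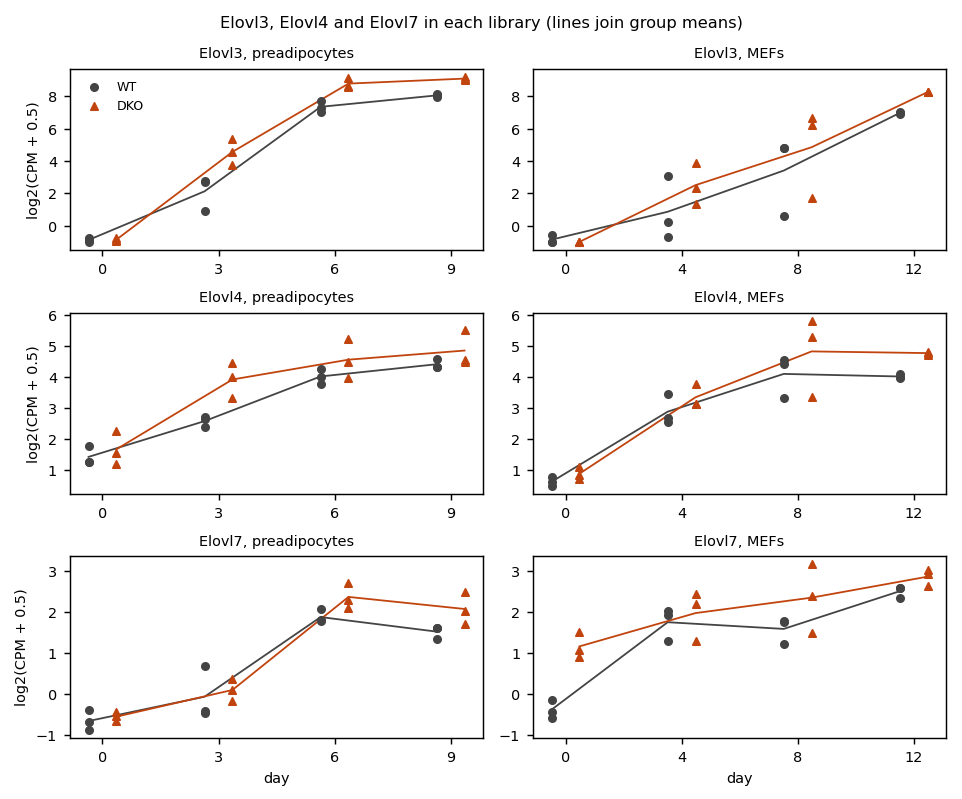
Levels of Elovl3, Elovl4 and Elovl7 by day, as log2(CPM + 0.5), in preadipocytes and MEFs. Each point is 1 library (circles WT, triangles DKO) and lines join group means. Elovl3 climbed from the floor at day 0 to between 242 and 578 CPM in preadipocytes at day 9 and to between 121 and 309 CPM in MEFs at day 12.

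Elovl3 was called higher in DKO preadipocytes at day 6, with a log2 fold change of 1.39 ± 0.21 (SE, n = 3 per genotype, edgeR adjusted p = 0.00698), and at day 9, with 1.00 ± 0.085 (edgeR adjusted p = 0.00463). Elovl3 was the only member called at those days, 1 of 6 tested, where 11.6% of all tested genes were called at day 6 and 1.24% at day 9. The ratio of DKO to WT means was 5.65 (day 3), 2.69 (day 6) and 2.05 (day 9). The day 3 difference, 2.49 ± 0.63, did not pass (edgeR adjusted p = 0.193). DESeq2 and 1 fit over all 24 libraries called it there (adjusted p = 5.31e-04 and 0.00111). The day 9 call was lost without WT replicate 2 (edgeR adjusted p = 0.055) and in the fit over 24 libraries (0.0731).

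In MEFs at day 0, Elovl3 had 0 counts in 5 of the 6 libraries and 4 counts in WT replicate 3. At day 4 the WT libraries had 7.85, 0.112 and 0.667 CPM and the DKO libraries 4.54, 1.98 and 14.1 CPM. At day 8 the WT libraries had 26.8, 1.03 and 27.8 CPM and the DKO libraries 101, 72.4 and 2.7 CPM. The low day 8 values belong to the 2 libraries with the least adipocyte marker RNA, and the groups overlapped at both days. At day 12 the WT libraries had 121, 127 and 125 CPM and the DKO libraries 309, 302 and 300 CPM, with no overlap and little spread within either group.

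The day 12 difference was called, with a log2 fold change of 1.27 ± 0.041 (edgeR adjusted p = 8.03e-12), a mean ratio of 2.45, against 7.98% of all tested genes called. It was not called in 1 fit over all 24 MEF libraries (1.29, edgeR adjusted p = 0.570), which shares its estimate of spread with days 4 and 8. At day 4 the log2 fold change was 1.22 ± 1.32 (edgeR adjusted p = 0.868), and it was 4.11 without WT replicate 1 (0.219) and 0.16 without DKO replicate 3 (0.998). The difference at day 8 was 1.63 ± 1.39 (edgeR adjusted p = 0.791). With WT replicate 2 and DKO replicate 3 left out, a choice made after their values were seen, the day 8 difference was 1.65 (edgeR adjusted p = 0.00603).

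**Figure D2:**
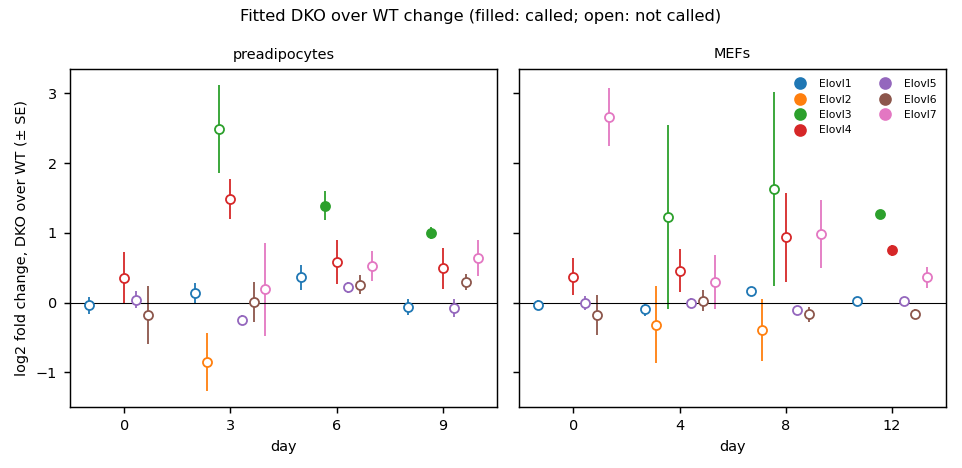
DKO against WT log2 fold change of each tested Elovl gene by day, with its standard error, in preadipocytes and MEFs; filled points were called. The filled points are Elovl3 at days 6 and 9 of preadipocytes and Elovl3 and Elovl4 at day 12 of MEFs.

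Markers of fat cells moved with Elovl3. The summed adipocyte markers were higher in every DKO library than in any WT library at days 3, 6 and 9 of preadipocytes (at day 6, WT 14810 to 19020 and DKO 21890 to 27480 CPM) and at day 12 of MEFs (WT 11530 to 11850, DKO 18410 to 19940 CPM). Set as a percent of that sum in the same library, a measure chosen after the values were seen, Elovl3 was 0.999% ± 0.123 (SD, n = 3) in WT and 1.81% ± 0.198 in DKO preadipocytes at day 6. At day 9 it was 1.27% ± 0.0788 in WT and 1.93% ± 0.0993 in DKO cells, and at day 12 of MEFs 1.06% ± 0.0324 and 1.59% ± 0.0645. The ratios of DKO to WT, 1.82, 1.52 and 1.49, were smaller than those of Elovl3 itself. That follows from dividing by a marker sum that was itself 1.49-, 1.35- and 1.64-fold higher in DKO cells. Each ratio had an exact two-sided permutation p of 0.1, the smallest that 3 against 3 libraries allow. At day 3 the ratio was 1.88 (exact permutation p = 0.2), while the marker sum itself differed 2.98-fold.

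**Figure D3:**
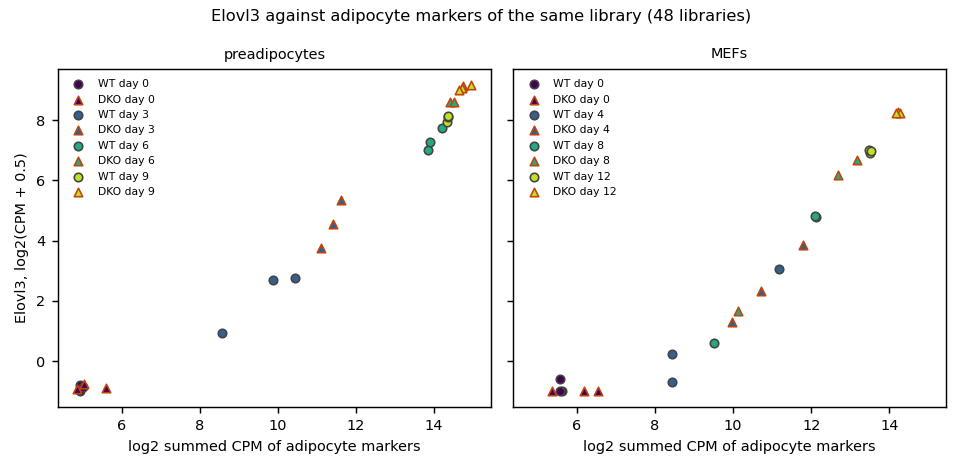
Elovl3, as log2(CPM + 0.5), against the log2 of the summed adipocyte marker CPM in the same library, for all 48 libraries. The points rise together from day 0 to the last day, and at the late days the DKO libraries lie further up on both axes.

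Other marker lists also moved with genotype at these days, and their part in the Elovl3 differences was not tested. Ucp1, the uncoupling protein of brown fat, averaged 9.55 CPM in WT and 50.9 CPM in DKO preadipocytes at day 6, 5.95 and 29.8 CPM at day 9, and 0.948 and 1.95 CPM in MEFs at day 12. The summed brown adipocyte markers other than Elovl3 did not overlap between the genotypes at these days. They were 92.2 to 118 CPM in WT and 264 to 357 CPM in DKO preadipocytes at day 6. At day 9 they were 119 to 142 and 162 to 440 CPM, and in MEFs at day 12 37.6 to 41.7 and 50.8 to 53.2 CPM. At day 3 of preadipocytes they overlapped (WT 41.2 to 68.4, DKO 52.85 to 65.37 CPM). In WT MEFs they were 57.5 to 115 CPM at day 4, above their day 12 values, and Elovl3 was higher at day 12. That is a comparison of days, not of genotypes. Macrophage markers, whose sum is mostly Lyz2, were lower in DKO cells at these days. Their sum was 4688 to 7977 CPM (WT) against 1763 to 3647 CPM (DKO) in preadipocytes at day 6. In MEFs at day 12 it was 3789 to 3837 against 2362 to 2727 CPM. At day 3 of preadipocytes the macrophage sum was only 61.2 to 204 CPM (WT) and 46.7 to 177 CPM (DKO). Its part in the Elovl changes between days 3 and 6 was not tested. The summed preadipocyte and fibroblast markers were 2254 to 2721 CPM in WT and 873 to 1246 CPM in DKO preadipocytes at day 6.

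With time, Elovl3 rose at each step of the WT preadipocyte series. It was called between days 0 and 3 (edgeR adjusted p = 0.00298), between days 3 and 6 with a log2 change of 5.17 ± 0.52 (2.77e-04) and between days 6 and 9 with 0.66 ± 0.17 (0.0232). The last of these calls was lost on leaving out WT replicate 2 or 3 of day 9 or WT replicate 1 or 3 of day 6 (log2 changes of 0.51 to 0.64), without a filter on low counts (edgeR adjusted p = 0.0945) and in the fit over 24 libraries (0.175). In DKO preadipocytes it rose between days 0 and 3 (edgeR adjusted p = 6.14e-04) and between days 3 and 6, by 4.07 ± 0.45 (3.72e-04). No fold is given against day 0, where the counts were at the floor of 3 counts per library in preadipocytes. In DKO MEFs it rose between days 0 and 4 (edgeR adjusted p = 0.0149), a call lost without DKO replicate 1 of day 4 (0.0529). Between days 8 and 12 its log2 change was 2.67 ± 0.88 in WT MEFs (edgeR adjusted p = 0.0537, and 3.04e-34 without WT replicate 2 of day 8) and 2.27 ± 1.01 in DKO MEFs (0.12, and 1.95e-05 without DKO replicate 3 of day 8).

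Elovl4, which extends chains beyond the reach of the other members, rose in both cell types after induction. In preadipocytes the WT libraries had 1.88, 1.87 and 2.88 CPM at day 0, 4.67, 5.98 and 5.76 CPM at day 3, 15.4, 18.7 and 13.1 CPM at day 6, and 19.6, 23.3 and 19.2 CPM at day 9. The DKO libraries had 4.24, 1.78 and 2.44 CPM at day 0, 21.1, 15.2 and 9.50 CPM at day 3, 21.6, 36.5 and 15.1 CPM at day 6, and 22.6, 45.1 and 21.9 CPM at day 9. The genotypes did not overlap at day 3 and overlapped at the other days.

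No genotype difference of Elovl4 was called in preadipocytes. The log2 fold change at day 3 was 1.49 ± 0.29 (edgeR adjusted p = 0.124), and DESeq2 and the fit over 24 libraries called it (1.96e-04 and 0.0275). No member was called at day 3 by the main test, against 0.337% of all genes. At day 6 it was 0.59 ± 0.32 (edgeR adjusted p = 0.230) and at day 9 0.49 (0.328). DKO replicate 2, the library with 45.1 CPM at day 9, also had the highest summed fibroblast markers of the DKO libraries of that day (4309 CPM, against 1594 and 2308 CPM).

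In MEFs, Elovl4 started at 0.910, 1.02 and 1.19 CPM (WT) and 1.3, 1.62 and 1.13 CPM (DKO) at day 0. At day 4 the WT libraries had 10.3, 5.28 and 5.82 CPM and the DKO libraries 8.18, 8.18 and 13.2 CPM. At day 8 they had 21, 9.46 and 22.6 CPM (WT) and 55.2, 38.5 and 9.76 CPM (DKO), with the low values again in WT replicate 2 and DKO replicate 3. At day 12 they had 16.6, 14.9 and 15.3 CPM (WT) and 25.5, 27.5 and 26.8 CPM (DKO), with no overlap. The day 12 difference was called, at a log2 fold change of 0.75 ± 0.076 (edgeR adjusted p = 1.69e-06). Elovl3 and Elovl4 were thus 2 called of 6 tested members at that day. The fit over all 24 libraries did not call Elovl4 (0.77, edgeR adjusted p = 0.352). At day 8 its log2 fold change was 0.93 ± 0.64 (edgeR adjusted p = 0.736), and 1.08 without the 2 named libraries (0.0227).

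Elovl4 rose by 1.32 ± 0.23 on the log2 scale between days 0 and 3 of WT preadipocytes (edgeR adjusted p = 0.00602) and by 1.52 ± 0.17 between days 3 and 6 (2.31e-04). In DKO preadipocytes it rose by 2.42 ± 0.42 between days 0 and 3 (edgeR adjusted p = 0.0065) and was not called later. In MEFs it rose between days 0 and 4 by 2.79 ± 0.31 in WT cells (edgeR adjusted p = 4.12e-04) and by 2.88 ± 0.29 in DKO cells (0.00356). Between days 8 and 12 of MEFs, where the means of Elovl3 went up, the log2 change of Elovl4 was −0.26 ± 0.31 in WT cells (edgeR adjusted p = 0.539) and −0.47 ± 0.54 in DKO cells (0.523). Without WT replicate 2 of day 8 the WT change was −0.57 (1.55e-07), under 1.5-fold. The DKO change was not called, except without DKO replicate 3 of day 8, where it fell by 0.91 (edgeR adjusted p = 7.80e-04).

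Elovl7, an elongase of saturated chains like Elovl1, was low throughout and rose between days 3 and 6 in preadipocytes of both genotypes. At day 0 the WT libraries had 0.123, 0.261 and 0.0465 CPM and the DKO libraries 0.189, 0.240 and 0.133 CPM, too few counts for the test. At day 3 they had 1.10, 0.256 and 0.230 CPM (WT) and 0.790, 0.575 and 0.397 CPM (DKO). At day 6 they had 3.68, 2.96 and 2.90 CPM (WT) and 3.79, 5.99 and 4.40 CPM (DKO), and at day 9 2.56, 2.04 and 2.54 CPM (WT) and 3.55, 5.11 and 2.77 CPM (DKO). At days 6 and 9 every DKO library was above every WT library, but neither difference passed, with log2 fold changes of 0.53 ± 0.21 (edgeR adjusted p = 0.105) and 0.65 ± 0.26 (0.166).

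In MEFs, the genotypes did not overlap in Elovl7 already before induction. At day 0 the WT libraries had 0.175, 0.415 and 0.247 CPM and the DKO libraries 1.59, 1.39 and 2.35 CPM, from 5 to 11 counts against 38 to 77 counts. The ratio of the means was 6.36. The log2 fold change was 2.66 ± 0.42 and did not pass (edgeR adjusted p = 0.144), while 0.102% of all genes were called. DESeq2 called it (adjusted p = 1.93e-04), as did the fit over 24 libraries (0.0101) and the fit without DKO replicate 1 (0.0421). Summed epithelial markers were also higher in DKO MEFs at day 0 (WT 2.49 to 4.16, DKO 5.61 to 12.2 CPM). The same held at day 12 (WT 3.74 to 4.58, DKO 7.21 to 10.6 CPM). Epithelial markers of WT MEFs at day 4 summed to 0.97 to 2.40 CPM, and Elovl7 was higher there than at day 0. That is a comparison of days, not of genotypes. Fibroblast markers at day 0 were 10470 to 11820 CPM in WT and 5247 to 12130 CPM in DKO MEFs. The part of either in the Elovl7 values was not tested.

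At day 4 of MEFs Elovl7 had 3.6, 3.27 and 1.96 CPM (WT) and 4.07, 1.94 and 4.90 CPM (DKO), and at day 8 2.95, 1.84 and 2.86 CPM (WT) and 8.46, 4.76 and 2.29 CPM (DKO). At day 12 it had 4.58, 5.48 and 5.50 CPM (WT) and 7.60, 7.05 and 5.70 CPM (DKO), again with no overlap but with the groups close, at a log2 fold change of 0.37 ± 0.15 (edgeR adjusted p = 0.0741). At day 8 its log2 fold change was 0.99 ± 0.49 (edgeR adjusted p = 0.638), and 1.16 without the 2 named libraries (0.0455). Elovl7 was the only member for which a change of the DKO effect with time was called. Its DKO effect in MEFs was smaller at day 12 than at day 0 by 2.26 ± 0.40 on the log2 scale (interaction in the 12 libraries of both days, edgeR adjusted p = 0.0178), where 2.35% of all genes were called. Leaving out 1 library gave adjusted p values of 0.00422 to 0.0713, and the call was lost without WT replicate 2 or 3 of day 12 and without WT replicate 1 or 3 of day 0.

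Between days, Elovl7 rose by 2.62 ± 0.54 on the log2 scale in WT preadipocytes between days 3 and 6 (edgeR adjusted p = 0.00463), and by 3.69 without WT replicate 1 of day 3, the library with 1.10 CPM (1.69e-04). In DKO preadipocytes it rose by 1.61 ± 0.42 between days 0 and 3 (0.0233), a call lost without DKO replicate 1 or 2 of day 3 or without any 1 of the day 0 libraries (0.0503 to 0.0743), and by 2.94 ± 0.32 between days 3 and 6 (1.75e-04). In WT MEFs it rose by 3.40 ± 0.40 between days 0 and 4 (edgeR adjusted p = 5.23e-04) and by 0.95 ± 0.22 between days 8 and 12 (0.0148), the latter lost without WT replicate 2 or 3 of day 12 (0.0634 and 0.0619). In DKO MEFs, whose day 0 libraries lay above the WT ones, its log2 change between days 0 and 4 was 1.05 (0.103).

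Elovl6, the elongase of palmitate, fell in preadipocytes over the days in which Elovl3 rose. The WT libraries had 49.2, 47.8 and 85.2 CPM at day 0, 38.6, 42.3 and 60.4 CPM at day 3, 20.2, 16.3 and 20.2 CPM at day 6, and 18.1, 15.6 and 16.8 CPM at day 9. The DKO libraries had 26.5, 58.4 and 76.5 CPM at day 0, 30.8, 47.5 and 63.1 CPM at day 3, 21.8, 20.6 and 26.9 CPM at day 6, and 19.1, 24.4 and 19.9 CPM at day 9. Both genotypes were lower at days 6 and 9 than at days 0 and 3, and the spread within a group was widest at day 0. Elovl6 fell by 1.32 ± 0.19 on the log2 scale between days 3 and 6 in WT cells (edgeR adjusted p = 8.29e-04) and by 1.08 ± 0.27 in DKO cells (0.0111).

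The DKO libraries lay just above the WT libraries at days 6 and 9 with no overlap, but the log2 fold changes of 0.25 and 0.30 ± 0.12 did not pass (edgeR adjusted p = 0.213 and 0.161). In MEFs, the group means of Elovl6 were highest at day 4. The WT libraries had 21, 25.2 and 20.7 CPM at day 0, 41.4, 31.6 and 28.3 CPM at day 4, 31.5, 26.8 and 32.3 CPM at day 8, and 26.7, 25.8 and 27.6 CPM at day 12. The DKO libraries had 26.0, 11.6 and 21.8 CPM at day 0, 31.1, 38.2 and 34.4 CPM at day 4, 28.6, 27.7 and 25.3 CPM at day 8, and 24.9, 23.9 and 23.6 CPM at day 12. At day 12 the DKO libraries were just below the WT libraries, with a log2 fold change of −0.16 ± 0.068 (edgeR adjusted p = 0.0773). The rise between days 0 and 4 was called in WT cells, at 0.61 ± 0.15 (edgeR adjusted p = 0.0136). It was lost without WT replicate 1 of day 4, where the change of 0.42 fell under 1.5-fold, and without WT replicate 1 or 3 of day 0 (0.058 and 0.0586). In DKO cells the change was 0.82 (edgeR adjusted p = 0.0778, and 1.07 with 0.0481 without DKO replicate 1 of day 0).

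Elovl1 and Elovl5 were well expressed in every library. Elovl1 ranged from 51.4 to 95.3 CPM over the 24 preadipocyte libraries and from 58.8 to 84.8 CPM over the 24 MEF libraries. Elovl5 ranged from 65.6 to 114 CPM and from 87.3 to 109 CPM. Neither was called between the genotypes in either cell type. The smallest adjusted p was that of Elovl5 in preadipocytes at day 6 (log2 fold change 0.22 ± 0.080, edgeR adjusted p = 0.0822), a change under 1.5-fold. There the WT libraries had 86.9, 98.5 and 93.6 CPM and the DKO libraries 114, 106 and 112 CPM. At day 3 it had the opposite sign, with 81.3, 83.5 and 85.6 CPM in WT and 65.6, 69.2 and 75.3 CPM in DKO libraries (−0.25 ± 0.075, 0.252). Between these days Elovl5 rose by 0.62 ± 0.085 in DKO preadipocytes (edgeR adjusted p = 5.58e-04), but by only 0.40 with scaling by library size and by 0.54 with limma-voom, both under 1.5-fold, as was the 0.57 found without DKO replicate 1 of day 3.

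Elovl1 fell by 0.41 on the log2 scale between days 0 and 3 of WT preadipocytes (edgeR adjusted p = 0.0115), under 1.5-fold. The DKO libraries at day 6 had 72.1, 94.6 and 54.3 CPM, a wider spread than the 53.8, 61.4 and 51.8 CPM of the WT libraries (log2 fold change 0.37, edgeR adjusted p = 0.187). In MEFs at day 8 it had 60.3, 63.1 and 59.8 CPM in WT and 71.2, 70.1 and 67.1 CPM in DKO libraries, with no overlap and a log2 fold change of 0.17 ± 0.061 (edgeR adjusted p = 0.545).

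**Figure D4:**
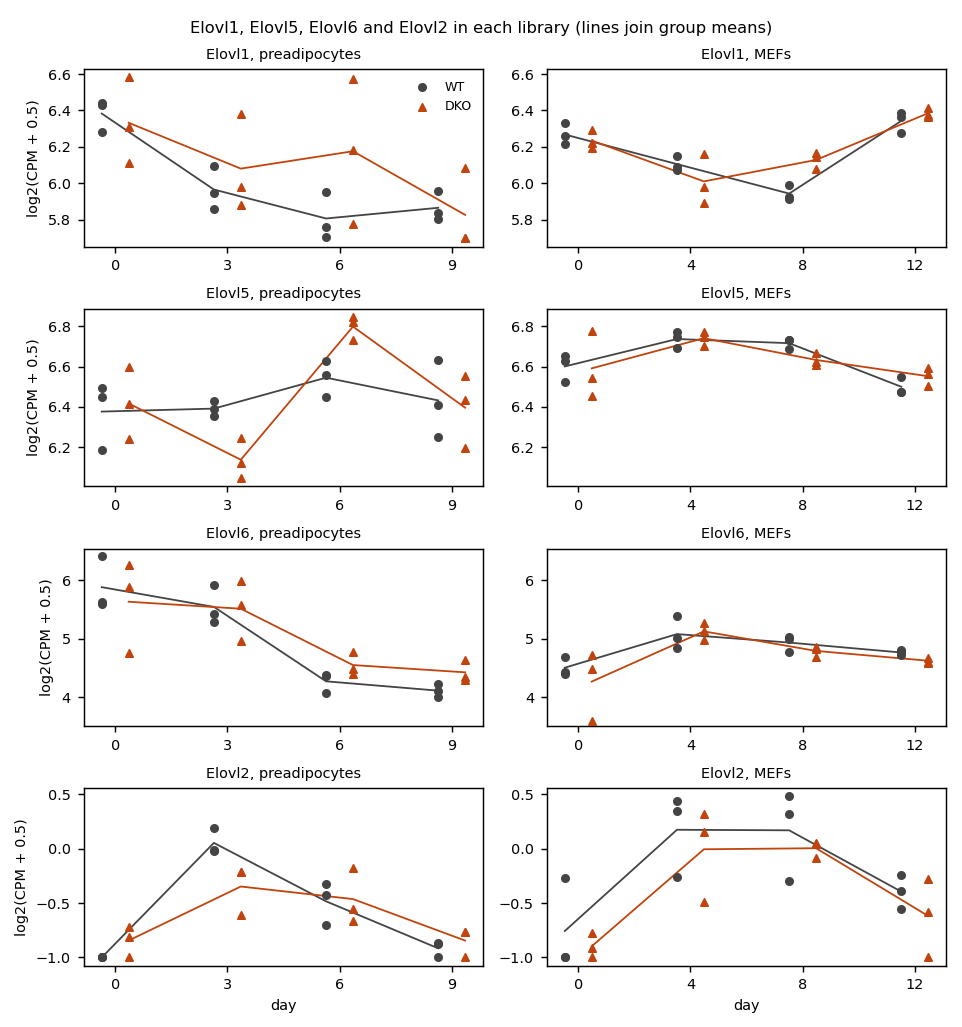
Levels of Elovl1, Elovl5, Elovl6 and Elovl2 by day, as log2(CPM + 0.5), in preadipocytes and MEFs, with 1 point per library (circles WT, triangles DKO) and lines through group means. Elovl1 and Elovl5 stay between 51.4 and 114 CPM, Elovl6 falls in preadipocytes after day 3, and Elovl2 stays under 1 CPM.

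Elovl2, which with Elovl5 acts on polyunsaturated chains and is known best from liver and testis, stayed under 1 CPM in every library. In preadipocytes it peaked at day 3, with 0.485, 0.641 and 0.494 CPM in WT and 0.362, 0.153 and 0.361 CPM in DKO libraries, against 0 counts in the 3 WT libraries at day 0. The rise was called in WT cells (edgeR adjusted p = 0.00485), as was the fall by 1.27 ± 0.41 on the log2 scale between days 3 and 6 (0.0297). The fall was no longer called with DESeq2 (0.0955), without a filter on low counts (0.067), or without WT replicate 2 or 3 of either day (0.051 to 0.0913). In MEFs it ranged from 0 to 0.33 CPM at day 0 and from 0.212 to 0.895 CPM at days 4 and 8.

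Of the remaining genotype comparisons, none of the members tested was called at day 0 of preadipocytes (4 tested, 0.218% of all genes called), day 4 of MEFs (7 tested, 0.0905%) or day 8 of MEFs (7 tested, 0.0595%). Counted over neighbouring days, 3 of 6 tested members rose in WT preadipocytes between days 0 and 3 (22% of all genes called), 3 of 7 rose and 2 fell between days 3 and 6 (45.9%), and 1 of 6 rose between days 6 and 9 (17.3%). In DKO preadipocytes 3 of 6 rose (25.2%), then 3 of 6 rose and 1 fell (50.2%), then none was called (9.7%). In WT MEFs 3 of 5 rose between days 0 and 4 (33.4%), none was called between days 4 and 8 (0% of all genes by edgeR, with 2248 genes at an unadjusted p under 0.05, 279 called by DESeq2 and 0 by limma-voom), and 1 of 6 rose between days 8 and 12 (21.5%). In DKO MEFs 2 of 6 rose between days 0 and 4 (21.4%), none was called between days 4 and 8 (0% by edgeR, with 1486 genes at an unadjusted p under 0.05, 145 called by DESeq2 and 0 by limma-voom) and none of 7 between days 8 and 12 (24%). Neighbouring steps share the libraries of the day between them.

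Apart from Elovl7, the tests of a DKO effect that differs between days called no member. In preadipocytes the share of all genes called was 0.0125% for day 3 against day 0, 4.55% for day 6 against day 0 and 0.0555% for day 9 against day 0. It was 0% by edgeR for day 9 against day 6 (847 genes at an unadjusted p under 0.05, 31 called by DESeq2). In MEFs it was 0% by edgeR for day 4 against day 0 (1185 genes at an unadjusted p under 0.05, 8 by DESeq2), day 8 against day 0 (859 and 11) and day 12 against day 8 (1215 and 96). Elovl3 in MEFs at day 12 against day 0 was not called by edgeR (adjusted p = 0.190) and was called by DESeq2 (0.0412). No size is given for it, since 5 of the 6 day 0 libraries had 0 counts and the fitted value rests on the 4 counts of WT replicate 3.

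Per kilobase of merged exons, which allows genes to be compared, Elovl1 and Elovl5 made up most of the summed Elovl level at day 0. Elovl1 took 47.6% and Elovl5 36.6% of it in WT preadipocytes, and 47.3% and 46.1% in WT MEFs. Elovl3 then overtook them. Its share was 3.85% at day 3, 59.4% ± 4.64 (SD, n = 3) at day 6 and 70.5% ± 1.48 at day 9 in WT preadipocytes, and 18%, 75.7% ± 2.08 and 82.3% ± 2.25 in DKO preadipocytes. In MEFs at day 12 it was 48.9% ± 0.841 in WT and 68.3% ± 0.246 in DKO cells. The summed level grew with it, from 64.3 to 189.5 CPM per kb in WT and from 63.3 to 333.3 CPM per kb in DKO preadipocytes between the first and the last day, and from 59.5 to 128.7 and from 58.8 to 225.1 CPM per kb in MEFs. Elovl3 was the highest member per kb in 7 of the 16 groups by group mean, and in 6 when lengths were taken from the longest transcript. The 7 include DKO MEFs at day 8, with 29.72 CPM per kb (1.37 to 51.15 over libraries) against 28.04 for Elovl5. By mean share Elovl5 (30.84%) was ahead of Elovl3 (25.01%) in that group, which holds the outlying DKO replicate 3. The order of Elovl1 and Elovl5 was not settled, since Elovl1 was ahead in 7 groups by merged exons and in 12 by longest transcript.

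**Figure D5:**
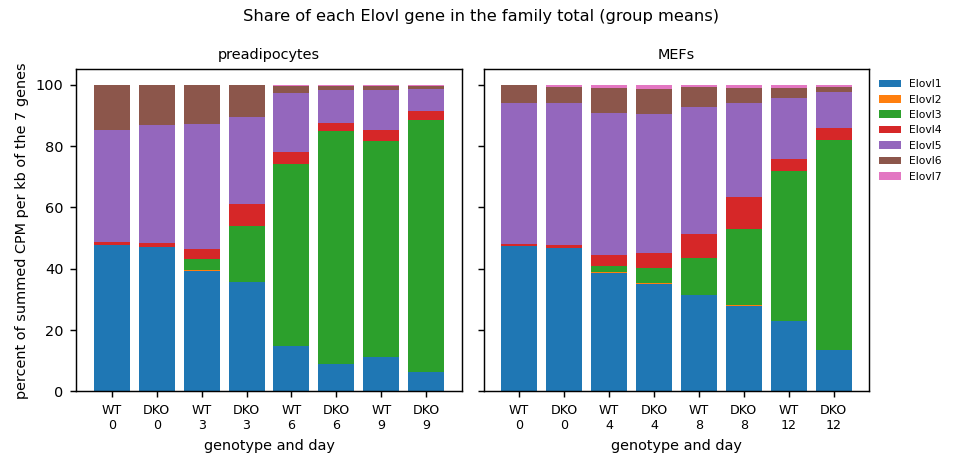
Share of each Elovl gene in the summed Elovl level (CPM per kb of merged exons, mean of 3 libraries) for each cell type, genotype and day, as stacked bars from 0% to 100%. Elovl3 grows from under 0.1% at day 0 to 70.5% (WT) and 82.3% (DKO) in preadipocytes and to 48.9% and 68.3% in MEFs.

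The cell types were set beside each other in WT cells, where cell type, culture and table of counts cannot be told apart. At day 0, 2 of 4 tested members were called (38.6% of all genes), both higher in preadipocytes, namely Elovl6 by 1.62 ± 0.25 on the log2 scale (edgeR adjusted p = 0.00195) and Elovl4 by 1.26 ± 0.27 (0.00425). At the last day, 3 of 6 were called (32.6% of all genes). Elovl3 was higher in preadipocytes by 1.32 ± 0.053 (edgeR adjusted p = 4.31e-09) and Elovl4 by 0.65 ± 0.090 (9.00e-05), while Elovl7 was lower by a log2 change of −0.90 ± 0.17 (7.36e-04). The call of Elovl4 was lost with scaling by library size (0.47) and without WT preadipocyte replicate 2 of day 9 (0.56), where the change fell under 1.5-fold.

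Within the family, Pearson correlations of log2(CPM + 0.5) over the 24 libraries of a cell type, which share their days, genotypes and library scaling, were highest among Elovl3, Elovl4 and Elovl7. Elovl3 had r = 0.944 with Elovl4 and 0.918 with Elovl7 in preadipocytes, and 0.887 and 0.826 in MEFs. With Elovl6 it had r = −0.802 in preadipocytes and 0.230 in MEFs. Among all genes, the profiles most like that of Elovl3 in preadipocytes were those of Agpat2, Adig and Dgat1, each with r = 0.997, and r = 0.986, 0.994 and 0.995 in MEFs. Agpat2 and Dgat1 encode enzymes of triglyceride synthesis, and Adig encodes adipogenin, a small protein of adipocytes. For Elovl4 they were Slc5a6 (0.954, and 0.876 in MEFs), Gm5182 (0.952 and 0.792) and B430219N15Rik (0.952 and 0.939). For Elovl7 they were Bcap31 (0.974 and 0.847), Wdr83 (0.970 and 0.794) and Tlcd1 (0.970 and 0.860). The profiles nearest to Elovl6 in preadipocytes were Lhx9 (0.951), 4930452B06Rik (0.949) and Mtmr4 (0.933), with r of −0.301, 0.145 and −0.016 in MEFs. Those nearest to Elovl1 were Elk1 (0.829), Map2k3 (0.826) and Psph (0.796), and in MEFs they had r of −0.092, −0.272 and −0.155. Elovl5 was nearest to Mettl2 (0.792), Esrrg (0.776) and Ing2 (0.773), and Elovl2 to Dbr1 (0.921), Fzd3 (0.890) and Rint1 (0.878).

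The genes that work with elongases were read from 7 lists of 89 genes in all. Of those tested, 21 of 83 were called higher and none lower in DKO preadipocytes at day 6, where 11.6% of all genes were called in either direction, and 17 of 83 were called higher and 1 lower in DKO MEFs at day 12 (7.98% of all genes). At day 3 of preadipocytes 1 of 81 was called (Me1, the malic enzyme that supplies NADPH, 0.82 ± 0.066 on the log2 scale, edgeR adjusted p = 0.00706), against 0.337% of all genes. At day 9 it was 1 of 82 (Ehhadh, of peroxisomal oxidation, 0.65 ± 0.083, edgeR adjusted p = 0.0226), near the 1.24% of all genes. At the other days of either cell type no gene of these lists was called.

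Over all genes, 11.6% were called at day 6 of preadipocytes and 7.98% at day 12 of MEFs. The partners that complete the elongation cycle, the reductases and dehydratases of the endoplasmic reticulum, had few calls. Of 6 tested, none was called in preadipocytes at day 6 (median log2 fold change 0.24, against −0.013 over all genes) and 1 in MEFs at day 12 (Hacd2, a dehydratase, 0.63 ± 0.054, edgeR adjusted p = 3.21e-07; median 0.34, against 0.0015). Desaturases, which act on the same acyl chains, were called higher in 4 of 8 at day 6 of preadipocytes (median 0.66) and 3 of 8 at day 12 of MEFs (median 0.55). The stearoyl-CoA desaturases Scd3 and Scd1 rose in both, Scd3 by 1.29 ± 0.14 (edgeR adjusted p = 0.00238) and 1.44 ± 0.13 (5.15e-06) and Scd1 by 1.03 ± 0.16 (0.00629) and 1.04 ± 0.088 (1.10e-05). Scd2 rose by 0.78 ± 0.13 in preadipocytes (0.00676) and Fads6 by 0.75 ± 0.20 in MEFs (0.00973). These Scd genes are close relatives, so reads can be split between them.

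The supply of malonyl-CoA and palmitate had 7 of 13 genes called higher at day 6 of preadipocytes (median 0.59, 11.6% of all genes called). At day 12 of MEFs it had 4 of 13 genes called higher (median 0.50, 7.98% of all genes called). They included Acss2 (1.06 ± 0.17), Acacb (0.97 ± 0.17) and Acly (0.80 ± 0.15), which make acetyl-CoA and malonyl-CoA, in preadipocytes, and Pcx (0.73 ± 0.047), Fasn (0.68 ± 0.045) and Me1 (0.71 ± 0.052) in MEFs. Peroxisomal oxidation of very long chains had 5 of 14 called higher (median 0.50, 11.6% of all genes called) and 4 of 14 (median 0.46, 7.98%). Among them were the acyl-CoA oxidases Acox2 (2.26 ± 0.28) and Acox3 (0.82 ± 0.10) in preadipocytes, Ehhadh (0.96 ± 0.045) and the transporter Abcd2 (0.76 ± 0.048) in MEFs, and the carnitine acetyltransferase Crat in both (0.92 ± 0.13 and 0.80 ± 0.055). Acyl-CoA synthetases and binding proteins had 2 of 14 called higher at day 6 (Acsf2 and Acsf3, at 0.74 ± 0.097 and 0.84 ± 0.12), a share near the 11.6% of all genes. At day 12 of MEFs, with 7.98% of all genes called, 2 of 15 were higher, Slc27a1 (0.89 ± 0.053) and Acsl1 (0.77 ± 0.051), and Slc27a6 was lower (−0.61 ± 0.20, edgeR adjusted p = 0.0264).

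Sphingolipid synthesis, which uses very long chains, had 1 of 12 called at day 6 of preadipocytes, where 11.6% of all genes were called. It was Sptlc3 (1.55 ± 0.38, edgeR adjusted p = 0.039), and the median of the list was −0.18. At day 12 of MEFs 0 of 11 were called (median −0.0087, 7.98% of all genes called). Among the regulators of lipogenesis and PPAR factors, 2 of 16 rose in preadipocytes, also near the share of all genes (11.6%), the coactivator Ppargc1a (0.79 ± 0.13, edgeR adjusted p = 0.00696) and the nuclear receptor Ppara (1.47 ± 0.24, 0.0111). In MEFs 3 of 16 rose (7.98% of all genes called), Mlxipl (0.59 ± 0.055), Ppargc1b (0.86 ± 0.12) and Ppara (1.13 ± 0.20, 0.00603). Adipocyte marker sums were higher in the DKO libraries at both of these days, and their part in the list counts was not tested.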

How the data were processed

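RNA-seq of preadipocytes and MEFs was analysed as 2 tables of 24 libraries. The authors trimmed reads (cutadapt 1.18), mapped them to mm10 (STAR 2.7.0f) and deposited RSEM 1.3.0 expected counts per gene with no normalization. RSEM shares out reads that match several genes, and 5.49% to 7.90% of values per library were not whole. The labels name polyA RNA, whereas the methods name a total RNA kit. Totals had medians of 23978864 (preadipocytes) and 23901661 (MEFs), and replicates differed by more than sampling noise.

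Counts were rounded and fitted with R 4.3.3 and edgeR 4.0.16 (filterByExpr, TMM, robust quasi-likelihood) over all genes, with genotype, day or cell type as the term, or genotype by day for interactions, which were called on the adjusted p alone. Alternatives were DESeq2 1.42.0, limma 3.58.1 voom with quantile normalization, library-size scaling, other filters (none, or 0.5 CPM in at least 2 libraries), no fold threshold, 1 fit over 24 libraries, a block for replicate number, and fits without 1 library at a time. In simulated counts edgeR recovered 188 of 199 genes changed 4-fold (94.5%, DKO against WT preadipocytes at day 6, 14506 genes), with 11 false calls (5.53% of calls), and DESeq2 made 27 (12.2%). For the day 6 against day 0 interaction of preadipocytes (15828 genes), edgeR recovered 159 of 200 (79.5%) with 7.02% false calls and DESeq2 made 19% false calls. With 0 genes changed, edgeR still called 4 genes and DESeq2 17 in the day 6 comparison. For the interaction they called 0 and 15. Changes smaller than 4-fold were not simulated. All 55450 identifiers matched GENCODE M21.

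The members and lists were chosen with earlier results of these data known. Named beside the 7 members were up to 3 called genes per list and direction by smallest p-value in each DKO against WT comparison, the 3 most alike genes over the 24 preadipocyte libraries, and Hmgn1 and Hmgn2. Replicate numbers paired libraries, by correlations over 0.1 in every pair, only in WT preadipocytes between days 6 and 9 (0.138 to 0.479) and in DKO preadipocytes between days 0 and 3 (0.428 to 0.590) and days 6 and 9 (0.427 to 0.514). A planned comparison of protein sequences was not run, and coding sequences were compared in its place.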

Additional observations from a re-analysis of the deposited data

Results flagged for a closer look

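The DKO effect on Elovl7 in MEFs differed between day 12 and day 0, by −2.26 on the log2 scale (interaction of genotype and day in edgeR's quasi-likelihood test, adjusted p = 0.0178). With DESeq2 the adjusted p was 4.96e-05. In the fit over 24 libraries it was 0.198, and over refits that left out 1 library it ranged from 0.00422 to 0.0713. At day 0 every DKO library (1.39 to 2.35 CPM) was above every WT library (0.175 to 0.415 CPM), and at day 12 the libraries were again apart but closer (5.70 to 7.60 against 4.58 to 5.50 CPM). The higher day 0 group rests on 38 to 77 counts per library and the lower on 5 to 11.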

How the results depend on the processing

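Of 2705 alternative values for 185 tested results of members, 2629 stayed on their side of the threshold, among them 138 that changed sign without being called under either setting, while 41 lost a call, 35 gained one, and none reversed a called value. In counts of members called, the fit over 24 libraries gave 2 at day 3 and 0 at day 9 of preadipocytes, 1 at day 0 and 0 at day 12 of MEFs (DKO against WT), 0 for WT MEFs between days 8 and 12, 5 for DKO MEFs between days 0 and 4, and 0 for the day 12 against day 0 interaction of MEFs. DESeq2 gave 2 at day 3 of preadipocytes, 1 at day 0 of MEFs, 1 for WT MEFs between days 4 and 8, 2 between days 8 and 12, and 2 for that interaction. Limma-voom gave 2 for WT and 1 for DKO MEFs between days 8 and 12, and library-size scaling 2 for WT MEFs there. With no fold threshold, counts were 1 (DKO preadipocytes, days 6 to 9), 3 and 2 (WT and DKO MEFs, days 8 to 12) and 5 (cell types at the last day). Without the 2 named day 8 libraries, 3 were called at day 8 of MEFs. Elovl1 exceeded Elovl5 in 12 groups by longest transcript. Leaving out 1 library gave 0 to 1 (DKO against WT, day 9 of preadipocytes and day 0 of MEFs), 0 to 1 (WT preadipocytes, days 6 to 9), 0 to 3 and 0 to 2 (WT and DKO MEFs, days 8 to 12), 2 to 4 (DKO MEFs, days 0 to 4) and 0 to 1 (the interaction). The share of all genes called can also change with the setting and is not given beside these counts. They are therefore not read as particular to the Elovl genes. The cause of these shifts was not tested.

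With the replicate number as a block, 1 member was called at day 3 of preadipocytes, Elovl3 (log2 fold change 2.55, edgeR adjusted p = 0.0246), and Elovl2 lost its call between days 3 and 6 in WT preadipocytes (−1.29, 0.0698). In both, the numbers did not pair the libraries by the rule of correlations over 0.1 in every pair. At day 3, however, same-numbered DKO and WT libraries correlated at 0.469, 0.0256 and 0.563, so partial pairing is possible there. The block changed no other call of a member. Low counts limit Elovl2 everywhere, and Elovl3 and Elovl7 at day 0.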
